A study of Mus musculus with 24 samples.

Results

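Calmodulin-dependent kinases and calcineurin, the kinases and the phosphatase that calcium-loaded calmodulin switches on, were followed in MIN6 cells with and without verapamil. The 9 genes were chosen by name: Camk4, Camk1d, Camk2b, Camk2d, Camk2g, Camkk2, Ppp3ca, Ppp3cb and Ppp3r1. Of these, 8 had a row among the 12310 gene rows of the deposited count table, and Camk1d was not analysed here. Camk4 rose 3.16-fold and was above every control library in all 12 verapamil-treated libraries, Camk2d rose by less and less evenly, and the calcineurin genes Ppp3ca and Ppp3cb were lower by amounts that differed widely between libraries. Neither fall passed once each library's trend with GC content and length was a covariate. With counts corrected for that trend Ppp3ca was still lower and Ppp3cb was higher. Camk2b, by far the most abundant of the kinases, stayed within a narrow range.

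Verapamil blocks L-type voltage-gated calcium channels, through which depolarised β-cells take up the calcium that triggers insulin release. MIN6 is a mouse insulinoma line used as a β-cell model. The control group was untreated wild-type MIN6 cells (12 libraries) and the verapamil group was wild-type MIN6 cells exposed to 50 µM verapamil for 24 h (12 libraries). All cells, of a passage under 25, had first been cultured for 24 h, in 5.6 mM glucose and 15% serum. It is a single cell line, with no vehicle group and a single dose and time. The sources describe the libraries both as independent experiments and as 4 sets of 3 replicates. The sets used here were read from the first digit of each label, so that libraries of a set may share a culture or a day.

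Calcium entering the cell binds calmodulin, and calcium-calmodulin then binds and activates its target enzymes. CAMKK2 phosphorylates and so activates CAMK4, a mainly nuclear kinase that phosphorylates the transcription factor CREB, as well as CAMK1 and AMP-activated protein kinase. CaMKII, encoded by Camk2a, Camk2b, Camk2d and Camk2g, is a large multimer that can keep itself active by autophosphorylation and is best known in β-cells for its part in insulin secretion. Calcineurin is a dimer of a catalytic subunit (from Ppp3ca, Ppp3cb or Ppp3cc) and a calcium-binding regulatory subunit (Ppp3r1), and it dephosphorylates NFAT transcription factors so that they enter the nucleus.

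RefSeq promoter windows in GRCm38.p6 were available for 6 of the 9 genes, and the 250 bases before the start in RefSeq are shown for a member that rose and a member that fell. The Camk2d window lies at chr3:126596701-126596950 on the plus strand, before the RefSeq start at 126596951 and downstream of the start of 1 of the 28 GENCODE transcripts, at 126596302, and the Ppp3cb window at chr14:20546574-20546823 on the minus strand. Capitals mark the NFAT core GGAAA or its reverse complement TTTCC, the letters searched because calcineurin acts on NFAT.
Camk2d: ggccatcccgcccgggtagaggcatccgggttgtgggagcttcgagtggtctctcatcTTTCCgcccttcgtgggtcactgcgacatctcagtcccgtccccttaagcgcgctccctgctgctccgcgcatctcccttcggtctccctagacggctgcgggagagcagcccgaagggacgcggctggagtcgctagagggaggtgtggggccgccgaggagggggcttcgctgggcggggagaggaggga
Ppp3cb: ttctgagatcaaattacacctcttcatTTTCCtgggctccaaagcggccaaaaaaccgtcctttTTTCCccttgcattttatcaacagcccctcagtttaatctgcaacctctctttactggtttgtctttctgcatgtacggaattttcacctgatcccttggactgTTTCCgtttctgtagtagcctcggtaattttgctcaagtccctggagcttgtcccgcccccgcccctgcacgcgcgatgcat
The Camk2d window held 1 such core and the Ppp3cb window held 3. The core was present in 55.6% of 32851 RefSeq windows of the same length, so its presence is common. A short cAMP-response element, TGACG or CGTCA, was found in 17.8% of all windows. It was found in neither of these windows and 1 time in that of Ppp3r1. The windows of Camk2b and Camkk2 held neither motif. These matches are letters only and say nothing of binding.

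Total counts per library ran from 12590476 to 32360171 in control cells and from 21840159 to 44806556 in verapamil-treated cells. Of 12 β-cell markers 10 were in the table, with a summed level of 3330 to 4400 CPM, the count of a gene relative to its library's scaled total, in control cells and of 2960 to 3790 CPM with verapamil. Among them Ins2, an insulin gene, was at 1320 and 635 CPM. For acinar and duct cells 1 of 8 markers was measured, Sox9, at up to 4.02 CPM in any library, and for fibroblasts, endothelium and immune cells 1 of 10, Pdgfra, at up to 1.45 CPM. Of 8 markers of other islet endocrine cells Gcg alone was measured, at 174 to 198 CPM in control cells and 176 to 333 CPM with verapamil (log2 fold change 0.49, adjusted p = 1.4e-05 by edgeR). Of 9 neuron and glia markers 7 were measured, with a sum of 374 to 430 CPM and then 217 to 455 CPM. The part of these levels in the members' results was not tested. The verapamil-treated libraries varied more than the controls, with a biological coefficient of variation of 0.275 as compared to 0.103. They also differed in a trend with base composition: the Pearson correlation, across 12304 genes within a library, between the deviation from the control mean and GC content lay between -0.178 and 0.156 in control libraries and between 0.0363 and 0.635 in verapamil-treated ones. It was highest in the verapamil-treated libraries of sets 2 and 3, all 6 of which lay at 0.482 or above. Genes are not independent replicates, so these correlations describe each library only. Values of the members in these libraries are given beside each result they touch, and levels in bulk RNA cannot tell fewer expressing cells from less RNA per cell.

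Levels were compared with edgeR's quasi-likelihood test over 12306 genes, and an adjusted p (Benjamini-Hochberg) under 0.05 was taken as passing. Of the 8 members, 2 rose (Camk4 and Camk2d), 2 fell (Ppp3ca and Ppp3cb) and 4 did not pass (Camk2b, Camk2g, Camkk2 and Ppp3r1). Over all genes tested 31.2% rose and 31.6% fell, 62.8% in either direction, so the share of members that passed was no larger than that of the whole table. The median log2 fold change of the 8 members was -0.06, beside -0.003 for all genes. The members differ from one another far more than their median shows, from a fall of 0.76 to a rise of 1.66 on the log2 scale. Camk4 was the 1 member with all 12 verapamil-treated libraries above every control library, which 4.95% of genes showed, and 0 members had all 12 below, which 5.18% of genes showed. The plot of CPM by library shows these patterns gene by gene.

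The number of members that passed depended on the libraries and the fit. Within set 1, 2 members rose and 1 fell, where 13.7% and 14% of all genes did. Within set 2, 1 rose and 3 fell (26.3% and 30.9% of all genes), and within set 3, 1 rose and 2 fell (19.9% and 23.4%). Within set 4 edgeR called 0 members in either direction, where 0.317% of all genes rose and 0.0894% fell at the same adjusted threshold. At an unadjusted p under 0.05, 2 members were higher and 0 lower. The share of all genes at that looser threshold is not given here, so these 2 cannot be set against a background. Camk4 was the member that rose in sets 1, 2 and 3, and Ppp3ca fell in the same 3 sets. Over all libraries, with each library's GC and length slopes as covariates, 2 members rose and 0 fell (21.2% and 14.2% of all genes, edgeR), and the 2 were again Camk4 and Camk2d. With counts corrected for that trend 4 rose (Camk4, Camk2d, Ppp3cb and Ppp3r1) and 2 fell (Ppp3ca and Camk2b), as did 33.1% and 24.5% of all genes, and with counts summed per set 2 rose and 1 fell (24.4% and 17.3%).

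**Figure D1:**
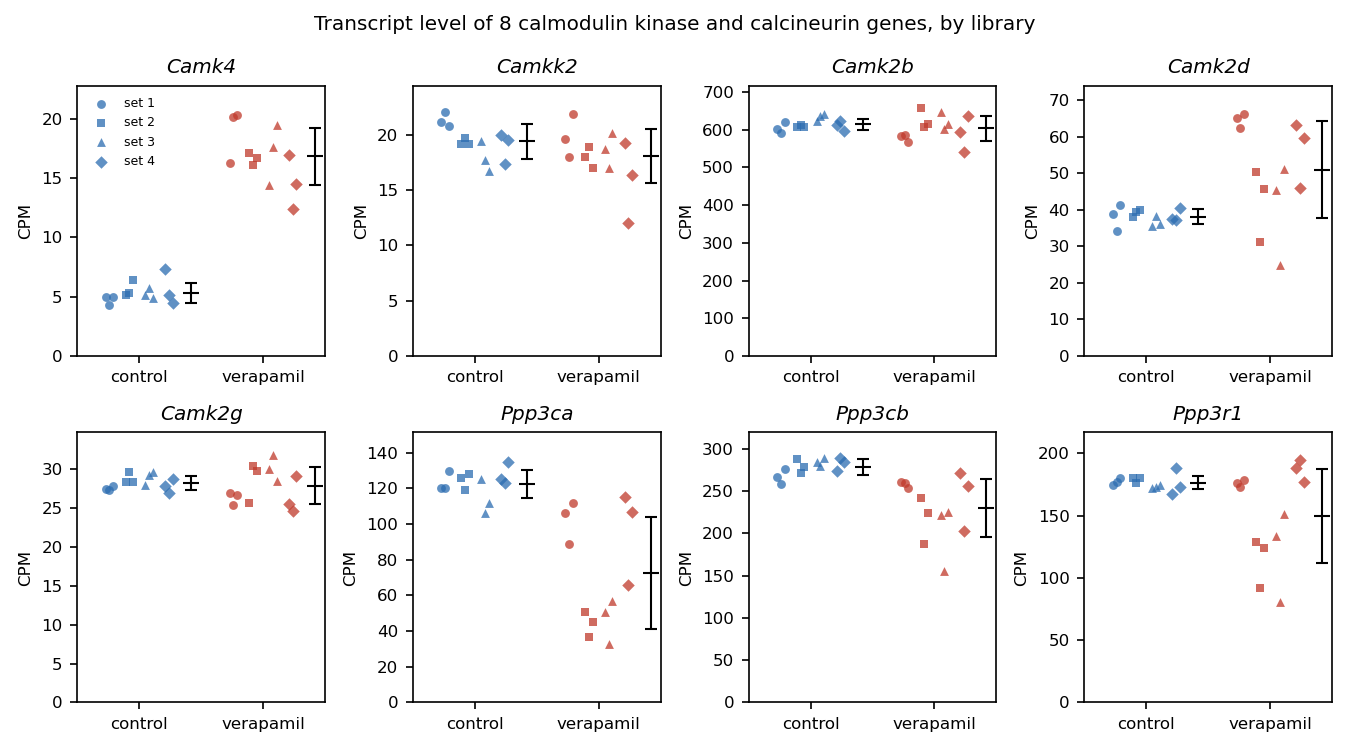
CPM (y axis, from 0) of the 8 members in each of the 24 libraries, control in blue and verapamil in red, with marker shape for the experiment set and the bar giving mean and SD over 12 libraries. All 12 verapamil-treated values of Camk4 (12.4 to 20.3 CPM) sit above the highest control value (7.35 CPM), while Ppp3ca spreads from 33.0 to 115 CPM under verapamil.

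Camk4 (ENSMUSG00000038128, plus strand of chromosome 18, 32934931 to 33191228 in GRCm38) encodes the kinase that carries calcium signals to CREB in the nucleus. In control cells its level ran from 4.29 to 7.35 CPM with a median of 5.13, and its mean was 5.32 ± 0.836 CPM (SD, n = 12). In verapamil-treated cells it ran from 12.4 to 20.3 CPM with a median of 16.9, and its mean was 16.8 ± 2.41 CPM (SD, n = 12). The groups did not overlap, and no library stood between them. These levels rested on 61 to 206 reads in control libraries and 310 to 919 reads in verapamil-treated ones. The log2 fold change was 1.66 (SE 0.0893, adjusted p = 1e-13 by edgeR), a 3.16-fold rise with a 95% interval of 1.48 to 1.83 on the log2 scale. Ranked by log2 fold change from the highest, Camk4 was number 29 of 12306 genes. An antisense gene, 2310026I22Rik, overlaps Camk4, and no source used here gives the strand setting of the counting, so reads of the pair cannot be told apart.

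The rise of Camk4 was of similar size in each experiment set. Its log2 fold change was 1.98 in set 1, 1.55 in set 2, 1.71 in set 3 and 1.37 in set 4 (n = 3 per group in each). By edgeR the adjusted p within sets was 1.7e-05, 2.4e-05, 0.001 and 0.074, in that order, so set 4 alone did not pass. Few genes of the whole table passed in that set, as given above. A test of whether the effect differed between sets did not pass for Camk4 (interaction adjusted p = 0.26 by edgeR). With counts summed to 1 value per set and group, the sums did not overlap. An exact two-sided permutation test gave an unadjusted p = 0.0286, the smallest that 4 against 4 can give. The sums of Camk2d, Ppp3ca and Ppp3cb did not overlap either, with the same p, so this result does not set Camk4 apart. Among the 3 verapamil-treated libraries with a GC trend inside the control range Camk4 was at 14.5 to 20.3 CPM, and in the 6 of sets 2 and 3 it was at 14.4 to 19.5 CPM. With each library's GC and length trend as covariates the log2 fold change was 1.76 (adjusted p = 4.3e-14 by edgeR).

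Camkk2 (ENSMUSG00000029471, minus strand of chromosome 5, 122731170 to 122779409) encodes the kinase directly upstream of CAMK4. Its control level ran from 16.7 to 22.1 CPM with a median of 19.4, and its verapamil level from 12.0 to 21.9 CPM with a median of 18.3. All but 2 verapamil-treated libraries lay inside the control range, and those 2 lay below it. Its log2 fold change of -0.10 (SE 0.0705, adjusted p = 0.21 by edgeR) did not pass, and the 95% interval ran from -0.24 to 0.04. Within libraries, Camk4 rose relative to Camkk2. The log2 ratio of Camk4 to Camkk2 counts moved from -1.88 ± 0.259 in control to -0.10 ± 0.153 in verapamil-treated cells (SD, n = 12), a difference of 1.77 (SE 0.0868). All 12 verapamil-treated libraries were above every control library for this ratio. A two-sided permutation test with 100000 resamples gave p = 2e-05, the smallest that these resamples can give, and 0.00012 after adjustment over the 6 ratios compared. The ratio rose by 2.1, 1.68, 1.64 and 1.67 in sets 1 to 4. Over 4 set means against 4 the exact permutation p was 0.0286, again the smallest possible, and 0.0857 after adjustment.

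Camk2b (ENSMUSG00000057897, minus strand of chromosome 11, 5969644 to 6066362) encodes the β subunit of CaMKII. Its level ran from 591 to 642 CPM in control cells with a median of 612, and from 541 to 657 CPM in verapamil-treated cells with a median of 605. The groups overlapped, with 6 verapamil-treated libraries inside the control range, 2 above and 4 below. Its log2 fold change was -0.02 (SE 0.0318, adjusted p = 0.53 by edgeR), with a 95% interval of -0.09 to 0.04. With counts corrected for the GC and length trend it passed as a small fall (-0.08, adjusted p = 0.022 by edgeR). Camk2g (ENSMUSG00000021820, minus strand of chromosome 14, 20734875 to 20794088) encodes the γ subunit. It ran from 27.0 to 29.6 CPM in control cells with a median of 28.2, and from 24.6 to 31.8 CPM in verapamil-treated cells with a median of 27.7. Its log2 fold change was -0.02 (SE 0.0446, adjusted p = 0.70 by edgeR), and its verapamil-treated libraries fell on both sides of the control range, 4 above and 6 below. The ratio of Camk2b to Camk2g was 4.44 on the log2 scale in both groups, and its difference did not pass (permutation p = 0.985, also 0.985 after adjustment over 6 ratios).

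Camk2d (ENSMUSG00000053819, plus strand of chromosome 3, 126596302 to 126846326), whose window is printed above, encodes the δ subunit and was the CaMKII gene that rose. Its control level ran from 34.2 to 41.3 CPM with a median of 38.1, and its verapamil level from 24.9 to 66.4 CPM with a median of 50.9. The verapamil-treated libraries fell on both sides of the control range, 10 above it and 2 below it, and none inside. The mean went from 38.1 ± 2.1 to 51.0 ± 13.3 CPM (SD, n = 12), a log2 fold change of 0.42 (SE 0.117, adjusted p = 0.0034 by edgeR). The 2 low libraries, at 31.2 CPM in set 2 and 24.9 CPM in set 3, belonged to the sets with the strongest GC trend. Camk2d rose within set 1 (log2 fold change 0.75, adjusted p = 0.00024 by edgeR). It did not pass in the other sets, where the log2 fold change was 0.09, 0.15 and 0.55 in sets 2, 3 and 4. A difference between sets was not shown (interaction adjusted p = 0.23 by edgeR).

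The size of the Camk2d rise depended on the libraries and on the trend. In the 3 verapamil-treated libraries with a GC trend inside the control range it stood at 59.8 to 66.4 CPM, above every control library. In the 6 of sets 2 and 3 it stood at 24.9 to 51.2 CPM. With the GC and length trend as covariates the log2 fold change was 0.89 (adjusted p = 3.9e-11 by edgeR), and without set 1 it was 0.28 and no longer passed (adjusted p = 0.065). Relative to the other CaMKII genes Camk2d gained: the log2 ratio of Camk2b to Camk2d went from 4.01 ± 0.0905 to 3.62 ± 0.458 (SD, n = 12), a difference of -0.39 (SE 0.135). Its permutation p was 0.008 over libraries and 0.012 after adjustment over 6 ratios. Over 4 set means against 4 the ratio did not pass (exact permutation p = 0.114, adjusted 0.171), nor did it pass over libraries without set 1 (-0.25) or without set 4 (-0.33).

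Ppp3ca (ENSMUSG00000028161, plus strand of chromosome 3, 136670124 to 136937727) encodes the α catalytic subunit of calcineurin and was the member that fell most. Its control level ran from 106 to 135 CPM with a median of 124, and its verapamil level from 33.0 to 115 CPM with a median of 61.5. Of the 12 verapamil-treated libraries 9 lay below every control library and 3 inside the control range, so the groups overlapped. The mean went from 122 ± 7.71 to 72.4 ± 31.3 CPM (SD, n = 12), and the coefficient of variation from 6.3% to 43.3%. The log2 fold change was -0.76 (SE 0.177, adjusted p = 0.00081 by edgeR), a level 0.592 times that of control cells. It was the member with the widest spread under verapamil.

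The fall of Ppp3ca differed between experiment sets. In set 1 the mean went from 123 to 102 CPM (log2 fold change -0.28, adjusted p = 0.036 by edgeR) and in set 4 from 128 to 96.1 CPM (-0.41, adjusted p = 0.40). In set 2 it went from 124 to 44.2 CPM (-1.51, adjusted p = 1.3e-05) and in set 3 from 114 to 46.9 CPM (-1.28, adjusted p = 0.003). Sets 2 and 3 were thus the low ones, with all 6 verapamil-treated libraries at 33.0 to 56.9 CPM and below every control library. The interaction of set and treatment passed for Ppp3ca (adjusted p = 0.0083 by edgeR), the 1 member for which it did, and it passed for 9.72% of all genes. It no longer passed without set 1 (adjusted p = 0.094) or without set 2 (adjusted p = 0.078). The GC trend moved with these values: the mean correlation with GC in verapamil-treated libraries was 0.188 and 0.158 in sets 1 and 4, and 0.542 and 0.554 in sets 2 and 3. In the 3 verapamil-treated libraries whose trend lay inside the control range Ppp3ca was at 107 to 115 CPM, inside the control range. With the trend as covariates the log2 fold change was -0.07 (SE 0.0559, adjusted p = 0.33 by edgeR), and with the counts corrected for it -0.45 (adjusted p = 0.00045). The plot of member levels beside the GC trend shows the same libraries.

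**Figure D2:**
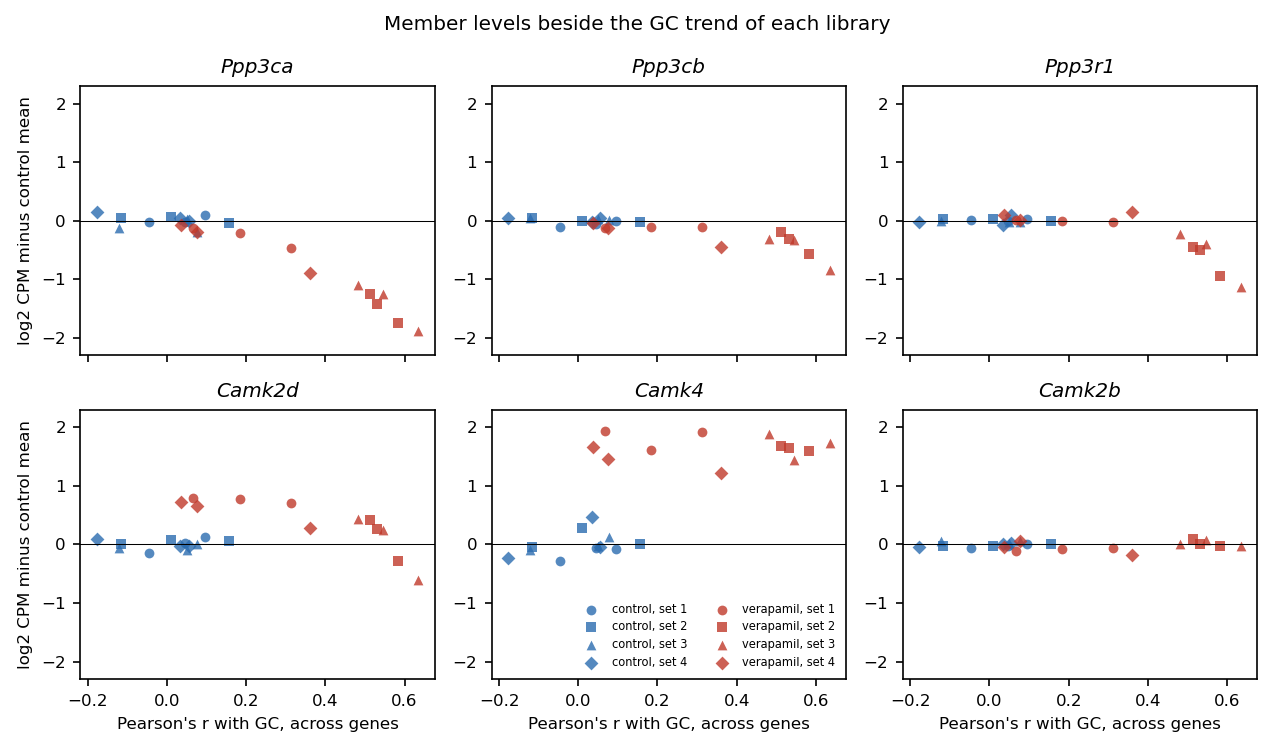
Level of 6 members (y axis, log2 CPM minus the control mean) against each library's Pearson correlation of its deviations with gene GC content (x axis), control in blue, verapamil in red, marker shape for the set. Ppp3ca and Ppp3r1 are lowest in the verapamil-treated libraries at 0.482 to 0.635. Ppp3cb is at 155 to 242 CPM in those libraries and at 203 CPM in V11, which lies at 0.361. Under verapamil Camk4 is high at every position and Camk2b stays near 0.

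Ppp3cb (ENSMUSG00000021816, minus strand of chromosome 14, 20499364 to 20546573), whose window is printed above, encodes the β catalytic subunit. Its control level ran from 259 to 289 CPM with a median of 279, and its verapamil level from 155 to 272 CPM with a median of 233. As for Ppp3ca, 9 verapamil-treated libraries lay below every control library and 3 inside the control range. The mean went from 279 ± 9.37 to 230 ± 34.7 CPM (SD, n = 12), a log2 fold change of -0.28 (SE 0.067, adjusted p = 0.0011 by edgeR). By set it was -0.06, -0.38, -0.50 and -0.21, and it passed in sets 2 and 3 (adjusted p = 0.0034 and 0.022 by edgeR). A difference between sets was not shown (interaction adjusted p = 0.23). The verapamil-treated libraries of sets 2 and 3 held 155 to 242 CPM, and the 3 with a trend inside the control range 254 to 272 CPM. With the trend as covariates the log2 fold change was -0.002 (adjusted p = 0.98 by edgeR), and with the counts corrected for it Ppp3cb turned to a rise of 0.42 (adjusted p = 0.0004), so its direction depended on the scaling.

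Ppp3r1 (ENSMUSG00000033953, plus strand of chromosome 11, 17159263 to 17200375) encodes the calcium-binding regulatory subunit of calcineurin. Its control level ran from 167 to 188 CPM with a median of 175, and its verapamil level from 80.5 to 195 CPM with a median of 162. The verapamil-treated libraries lay on both sides, 2 above, 6 below and 4 inside the control range. The log2 fold change of -0.24 (SE 0.11, adjusted p = 0.063 by edgeR) did not pass. By set it was -0.02, -0.66, -0.51 and 0.09, and it passed in set 2 (adjusted p = 0.00086 by edgeR). Over all libraries but those of set 1 or of set 4 it passed as well, at -0.32 (adjusted p = 0.044) and -0.36 (adjusted p = 0.016). The 6 verapamil-treated libraries below the control range were those of sets 2 and 3, at 80.5 to 151 CPM. With the trend as covariates the difference was 0.12 (adjusted p = 0.10 by edgeR) and with corrected counts 0.21 (adjusted p = 3.2e-05), so that no direction can be given for it. In the annotation 462 of the 3228 exon bases of Ppp3r1 are also exon of Wdr92 on the same strand, so its count is uncertain to the extent that reads fall there.

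Within libraries the catalytic genes Ppp3ca and Ppp3cb moved by different amounts. The log2 ratio of Ppp3ca to Ppp3cb counts went from -1.19 ± 0.102 to -1.78 ± 0.470 (SD, n = 12), a difference of -0.60 (SE 0.139) with 8 verapamil-treated libraries below every control library. Its permutation p was 0.00014, and 0.00042 after adjustment over 6 ratios. The difference was negative in every set, at -0.23, -1.13, -0.80 and -0.22. The 8 libraries below the control range were the verapamil-treated ones with a GC correlation of 0.312 or above. V3, V10 and V12, whose GC trend lay inside the control range, were at -1.183, -1.236 and -1.258. Control libraries ran from -1.399 to -1.083, so these lay inside. The part of the trend in this ratio was not tested. The ratio of Ppp3r1 to the sum of both catalytic genes rose by 0.15 (SE 0.0615), from -1.18 ± 0.0534 to -1.03 ± 0.206, with 8 libraries above the control range and 1 below (permutation p = 0.0054, adjusted 0.0108). Of these libraries V11, of set 4, stood apart at -0.468, and the next highest was V9 at -0.902. V10 and V12 of set 4 were at -1.044 and -1.033. V11 also had the lowest correlation of deviations with log2 gene length of any library, -0.586. Over 4 set means against 4 the exact permutation p was 0.0286, the smallest possible, for Ppp3ca to Ppp3cb. It was 0.0857 for Ppp3r1 to the catalytic genes. Neither passed after adjustment (adjusted p = 0.0857 and 0.171, in that order). The ratio of Camk2g to Camk2d, the last of the 6, fell by 0.39 (SE 0.155; permutation p = 0.0173, adjusted 0.0208), with 10 libraries below the control range and 2 above it. Without set 4 the ratio of Ppp3r1 to the catalytic genes was 0.08 and did not pass, and without set 1 or set 4 that of Camk2g to Camk2d was -0.25 or -0.32 and did not pass.

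**Figure D3:**
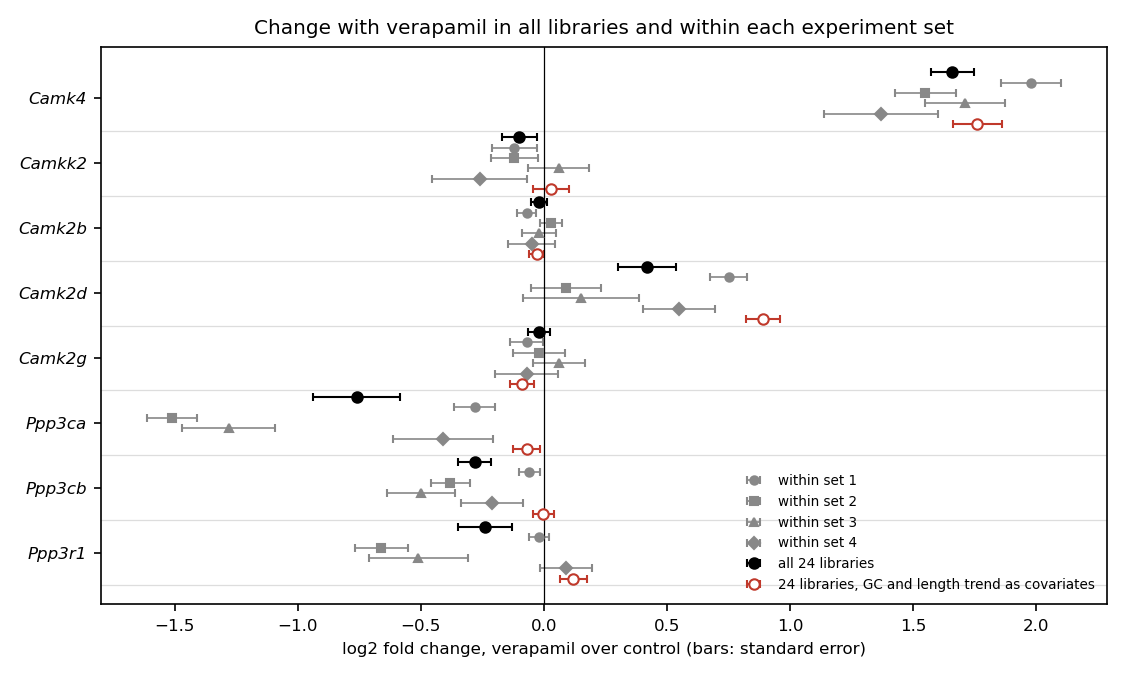
Log2 fold change of verapamil over control (x axis, bars are standard errors) for each member over all 24 libraries (black), within each of the 4 experiment sets (grey) and over all libraries with the GC and length trend as covariates (red, open). Camk4 lies between 1.37 and 1.98 in every set, Ppp3ca between -1.51 and -0.28, and the covariates bring Ppp3ca to -0.07 and Camk2d to 0.89.

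To compare genes with one another, CPM was divided by the length of each gene's exons joined. On this scale the control level was highest for Camk2b, at 67.3 ± 1.65 CPM per kb (SD, n = 12). Ppp3r1 followed at 54.6, Ppp3cb at 31.6, Ppp3ca at 12.3 and Camk2g at 4.42 CPM per kb. The libraries of each of these 5 did not overlap with those of the next. Camkk2 at 1.78, Camk2d at 1.70 and Camk4 at 1.63 CPM per kb were the lowest, and neighbours among these 3 overlapped. In verapamil-treated cells Camk4 stood at 5.17 CPM per kb, between Ppp3ca at 7.25 and Camk2g at 4.35, and overlapped with both. With the longest transcript in place of joined exons Ppp3cb (72.7 CPM per kb) came before Ppp3r1 (61.7) in control cells, and Camk2d (6.90) before Camkk2 (3.99), so these parts of the order rest on the choice of length. The place of Camk4 under verapamil does so too, since by longest transcript it stood at 6.2 CPM per kb, below Camk2d (9.23) and Camk2g (7.53).

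**Figure D4:**
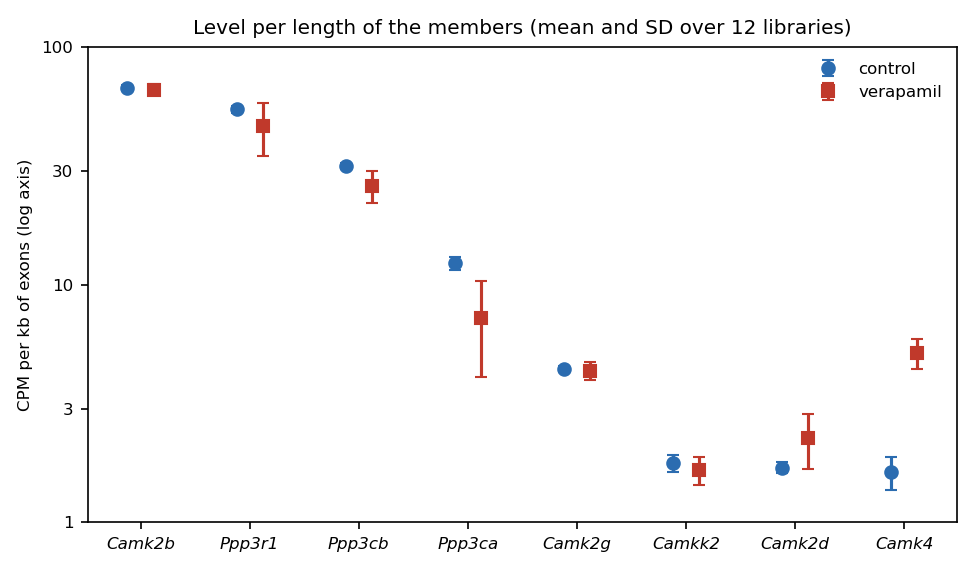
Mean level per length (y axis, CPM per kb of joined exons, log axis) of the 8 members, control as blue circles and verapamil as red squares, with bars for the SD over 12 libraries. Camk2b is the highest in both groups (67.3 and 66.2) and Camk4 moves from 1.63 to 5.17 CPM per kb.

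Per length, Camk2b made up 91.5% ± 0.272 of the CaMKII transcripts in control cells and 90.8% ± 0.676 in verapamil-treated cells (SD, n = 12). Camk2d went from 2.31% ± 0.139 to 3.12% ± 0.856 and Camk2g from 6.01% ± 0.167 to 5.98% ± 0.458. The composition thus stayed dominated by the β subunit gene. Of the calcineurin catalytic transcripts Ppp3cb made up 69.5% ± 1.34 and then 75.6% ± 4.75, and Ppp3ca 27.0% ± 1.38 and then 20.0% ± 5.21. Ppp3cc, the remaining catalytic gene, was a minor part at 3.54% ± 0.541 and 4.4% ± 0.690. It stood at 4.80 and 4.47 CPM and did not pass the test (log2 fold change -0.11, adjusted p = 0.29 by edgeR). Among Camk1, Camk1g, Pnck and Camk4, the share of Camk4 went from 5.76% ± 0.747 to 13.2% ± 2.58. Shares depend on the length used: by longest transcript Camk4 went from 3.45% to 8.51%, Camk2d from 4.22% to 5.66% and Ppp3cc from 1.92% to 2.38%, each in the same direction.

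Other kinases, inhibitors and phosphatases of calmodulin signalling were counted from a list of 22 genes, of which 19 were measured. Of these 6 rose, 5 fell and 8 did not pass, with a median log2 fold change of 0.004. Beside this and the following lists, 31.2% of all genes rose and 31.6% fell. With the trend as covariates these shares were 21.2% and 14.2%. All 12 verapamil-treated libraries lay above every control library for 4.95% of all genes, and below for 5.18%. Camk1g, a kinase of the CAMK1 family, went from 15.7 ± 2.17 to 28.9 ± 4.48 CPM (SD, n = 12; log2 fold change 0.88, SE 0.0856, adjusted p = 8.2e-09 by edgeR). Camkk1, the partner of Camkk2 upstream of CAMK1 and CAMK4, went from 13.6 ± 1.40 to 21.3 ± 1.91 CPM (log2 fold change 0.65, SE 0.0607, adjusted p = 3.9e-09). Both were above every control library in all 12 verapamil-treated libraries, and both passed with the trend as covariates (0.66 and 0.61). Camk2n2, an inhibitor of CaMKII, rose from 148 to 203 CPM (log2 fold change 0.46, adjusted p = 1.9e-05 by edgeR), but was at 0.10 (adjusted p = 0.050) with the covariates. Its paralogue Camk2n1 did not pass, at 146 and 153 CPM (adjusted p = 0.47). Ppm1e, a phosphatase that dephosphorylates calmodulin kinases, fell from 144 ± 6.11 to 62.6 ± 24.7 CPM and Cask, a scaffold with a CaMK-like domain, from 394 ± 24.9 to 199 ± 55.8 CPM. Their log2 fold changes were -1.20 (adjusted p = 1.9e-06) and -0.98 (adjusted p = 3.5e-07 by edgeR), with all 12 libraries below every control library, and both were at -0.49 with the covariates. Phkg1, a phosphorylase kinase subunit, fell by 0.56 on the log2 scale and did not pass with the covariates (-0.30, adjusted p = 0.065). Camk1 and Camk2a were looked at after their values were seen, as relatives of the members. Camk1 rose by 0.23 (adjusted p = 0.0048) but was at -0.06 with the covariates, and Camk2a, low at 0.945 CPM, fell to 0.375 CPM (adjusted p = 9.7e-05).

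Of 10 listed genes for calmodulin and proteins that sequester it 9 were measured: 3 rose, 3 fell and 3 did not pass, with a median of -0.08. Calm3 rose from 537 to 631 CPM (log2 fold change 0.23, adjusted p = 0.016 by edgeR) and did not pass with the trend as covariates (0.13, adjusted p = 0.29). Calm2 was counted at 2.57 and 2.38 CPM and did not pass (adjusted p = 0.73), but near-identical copies make its counting uncertain. Nrgn, neurogranin, which binds calmodulin free of calcium, rose from 121 to 195 CPM, above every control library in all 12 (log2 fold change 0.69, adjusted p = 4.1e-08 by edgeR, and 0.44 with the covariates). Pcp4l1, a small protein related to the calmodulin regulator PCP4, fell from 1.89 to 0.572 CPM (-1.73, adjusted p = 7.1e-06). Gap43 rose by 0.17 (adjusted p = 0.0036 by edgeR) and Calml4 fell by 0.21 (adjusted p = 0.016).

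Of 16 other subunits, regulators, anchors and substrates of calcineurin 12 were measured, of which 6 rose, 2 fell and 4 did not pass, with a median of 0.13. Rcan1, a calcineurin inhibitor whose transcription NFAT drives, rose from 9.71 ± 1.33 to 12.4 ± 1.88 CPM (SD, n = 12; log2 fold change 0.35, SE 0.0856, adjusted p = 0.0011 by edgeR). It did not pass with the covariates (0.19, adjusted p = 0.13). Its relative Rcan2 fell from 32.6 to 26.0 CPM (-0.33, adjusted p = 0.00031) and likewise did not pass with them (-0.14, adjusted p = 0.16). Fkbp1a, which binds calcineurin together with tacrolimus, rose by 0.42 (adjusted p = 1.2e-05 by edgeR). Bad, a pro-apoptotic substrate, rose by 0.51 (adjusted p = 7.1e-06), and both still passed with the covariates at 0.12 and 0.15. Dnm1l, a mitochondrial fission enzyme and substrate, fell by 0.83 (adjusted p = 0.0032) and was at 0.04 with the covariates (adjusted p = 0.43). With the covariates 4 genes of this list rose and 0 fell.

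On the list of NFAT and TFEB factors and the kinases that oppose calcineurin, 14 of 15 genes were measured: 2 rose, 7 fell and 5 did not pass, with a median of -0.19. Nfatc1, an NFAT factor, fell from 8.55 ± 1.32 to 5.55 ± 0.964 CPM (SD, n = 12; log2 fold change -0.63, SE 0.0989, adjusted p = 1.1e-05 by edgeR) and was at -0.72 with the covariates. Nfat5, a tonicity-responsive relative that calcineurin does not control in the same way, fell by 0.64 (adjusted p = 0.0078) but turned to a rise of 0.20 with the covariates (adjusted p = 0.0073). Dyrk2, a kinase that phosphorylates NFAT, fell by 0.54 (adjusted p = 0.00047) and was at -0.02 with the covariates. Gsk3a, another such kinase, rose by 0.33 (adjusted p = 0.00042 by edgeR). Tfe3, a relative of TFEB, rose by 0.29 (adjusted p = 0.0005). With the covariates neither passed (0.11 and 0.15), and 3 genes of the list rose and 3 fell.

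Among nuclear and cytosolic targets of the calmodulin kinases 19 of 21 genes were measured. Of these 5 rose, 7 fell and 7 did not pass, with a median of -0.12. Crem, a CREB-family gene that is itself induced through CREB, went from 25.3 ± 2.49 to 68.9 ± 6.86 CPM (SD, n = 12; log2 fold change 1.44, SE 0.0609, adjusted p = 6.8e-16 by edgeR). All 12 libraries were above every control library, and the value was 1.45 with the covariates. Irs2, an insulin receptor substrate whose transcription CREB drives in β-cells, went from 203 ± 14.9 to 351 ± 53.6 CPM (0.79, adjusted p = 8.7e-09, and 0.79 with the covariates). Mef2d, a transcription factor released by kinase action on class IIa deacetylases, rose by 0.30 (adjusted p = 0.00024 by edgeR). Hdac9, such a deacetylase, fell from 3.96 to 1.62 CPM (-1.28, adjusted p = 6.8e-07). Creb1 fell from 57.9 ± 2.73 to 30.7 ± 16.2 CPM (-0.91, adjusted p = 0.001), and Map2, a microtubule protein, fell by 0.90 (adjusted p = 0.0014). Neither passed with the covariates (-0.05, adjusted p = 0.49, and -0.002, adjusted p = 0.98).

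Of the AMP-activated protein kinase subunits and its upstream kinase, 9 of 10 were measured: 2 rose, 4 fell and 3 did not pass, with a median of 0.05. Prkab1, a regulatory subunit, rose from 15.9 to 22.4 CPM (log2 fold change 0.49, adjusted p = 2.2e-05 by edgeR, and 0.24 with the covariates). Stk11, the upstream kinase LKB1, rose by 0.19 (adjusted p = 0.002) and was at 0.03 with the covariates. The catalytic subunit genes Prkaa1 and Prkaa2 fell by 0.52 and 0.98 (adjusted p = 0.0055 and 0.0042 by edgeR), and Prkab2 fell by 0.74 (adjusted p = 0.0049). With the trend as covariates 0 genes of this list fell.

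Genes that calcium, CREB or NFAT induce were measured for 19 of 23, of which 9 rose, 6 fell and 4 did not pass, with a median of 0.19. Besides Crem, the largest rises were those of Sik1, a CREB-induced kinase (1.36 to 4.24 CPM, log2 fold change 1.62, adjusted p = 3.5e-08 by edgeR), and Fosl2, an AP-1 subunit (4.13 to 11.5 CPM, 1.47, adjusted p = 1.9e-10). Both were at 1.36 or above with the covariates. Other immediate-early genes were lower: Jun fell from 17.1 ± 2.15 to 8.85 ± 1.23 CPM (-0.95, adjusted p = 1.1e-09) and Egr1 from 24.5 ± 2.04 to 15.8 ± 2.68 CPM (-0.63, adjusted p = 9.6e-07 by edgeR). For both, all 12 verapamil-treated libraries were below every control library, and the values with the covariates were -1.04 and -0.62. Bdnf, a growth factor induced by calcium, fell by 0.34 (adjusted p = 0.0035) and was at -0.04 with the covariates. Fos was not analysed here.

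S100 proteins and other EF-hand calcium sensors were measured for 16 of 25 listed genes, of which 8 rose, 2 fell and 6 did not pass, with a median of 0.19. Kcnip1, a calcium sensor that binds Kv4 potassium channels, went from 57.4 ± 3.53 to 140 ± 10.9 CPM (SD, n = 12; log2 fold change 1.29, SE 0.0459, adjusted p = 1.8e-17 by edgeR). Kcnip3, a calcium-dependent transcriptional repressor also called DREAM, rose from 39.3 to 77.2 CPM (0.97, adjusted p = 1e-11). Cabp1, a calmodulin-like sensor, rose by 0.58 (adjusted p = 1.5e-06), and all 3 were above every control library in all 12 verapamil-treated libraries. Calb1, the calcium buffer calbindin, fell from 9.88 ± 1.71 to 3.82 ± 1.26 CPM (-1.36, adjusted p = 2.2e-07 by edgeR). Scgn, secretagogin, fell by 0.25 (adjusted p = 0.0082). These calls stood with the covariates as well.

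**Figure D5:**
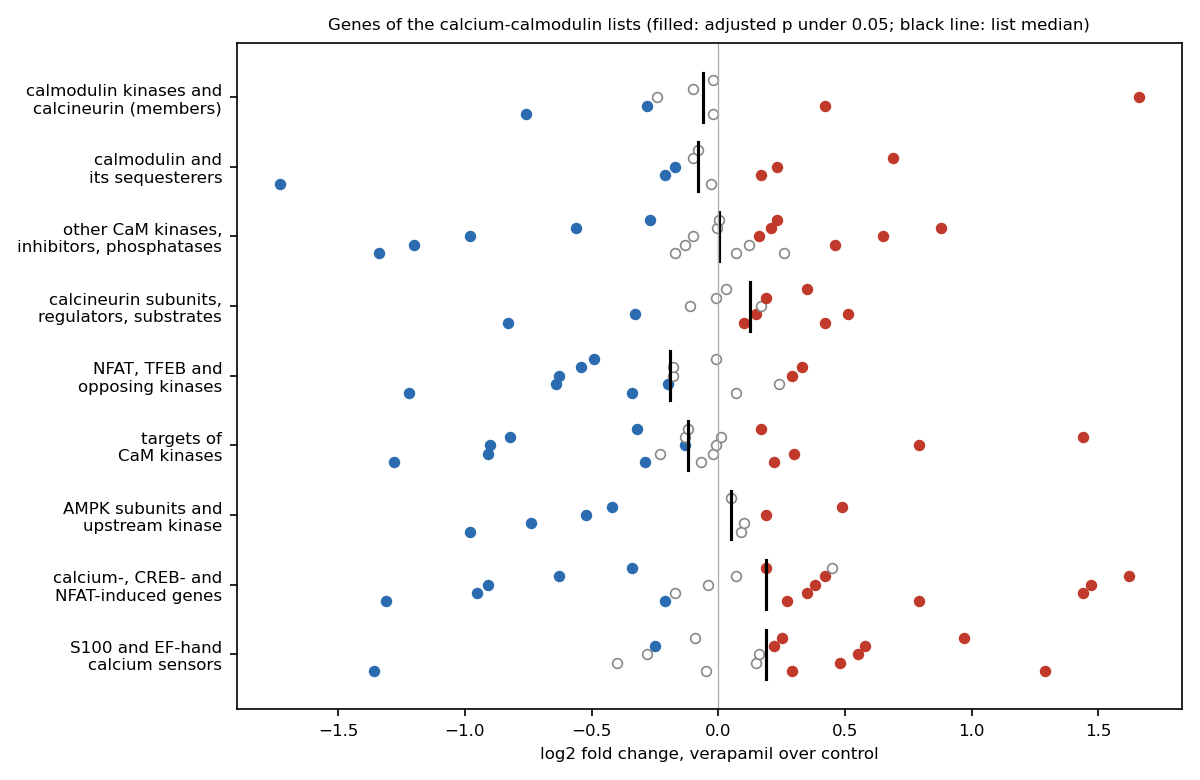
Log2 fold change of verapamil over control (x axis) for each measured gene of the 8 lists and the members, red for genes that rose and blue for genes that fell with an adjusted p under 0.05, open where the test did not pass, and a black line for the list's median. Every list holds genes that rose and genes that fell, and the list medians lie between -0.19 and 0.19.

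The genes whose pattern was most like that of Camk4 were found by the root mean square difference of log2 levels, each gene set to its control mean, over the 24 libraries. Predicted genes and pseudogenes were left out. Among the 7922 other genes averaging 5 CPM or more the nearest was Dner, a Notch-ligand-like membrane protein, at 0.201. Ncald (0.222), the EF-hand calcium sensor neurocalcin δ, came next. Cyp51 (0.227), an enzyme of cholesterol synthesis, Gpt2 (0.229), a mitochondrial alanine aminotransferase, and Acat2 (0.243), a thiolase, followed. The median over all those genes was 1.2. Their log2 fold changes were 1.74, 1.62, 1.64, 1.45 and 1.60, in that order, near the 1.66 of Camk4. Within the 12 verapamil-treated libraries alone the nearest genes were again Dner (0.173) and Ncald (0.174). Since the measure follows the size of the change between groups, likeness here is mainly a shared size of rise, in libraries they share.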

How the data were processed

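RNA was sequenced from 12 control and 12 verapamil-treated MIN6 libraries. The authors deposited 1 table of whole-number read counts per gene. Per the labels and methods they used bcl2fastq 2.20, Trimmomatic 0.39, HISAT2 2.1.0 and HTSeq 0.9.1 on GRCm38. No source used here gives the strand setting or annotation release, and the RNA input and kit differ between labels and methods. The table's own columns (mean log2 CPM, p, adjusted p, fold change) were not used.

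Counts were filtered with filterByExpr (minimum 10), scaled by TMM and fitted for 12306 genes with edgeR 4.0.16 (quasi-likelihood, R 4.3.3), with Benjamini-Hochberg adjustment and no block. Log2 CPM used a prior count of 2. The fit was tested on simulated data with the same spread in both groups, no sets and no GC or length trend. The libraries here differ in these respects, so that run does not show how the fit behaves on them. GC, length and positions came from GENCODE M21. Each library's slopes on GC and length served as covariates, or spline fits as offsets. Both were fitted to the library's deviation from the control mean, so they can carry part of the treatment effect itself. The variance inflation of treatment with the trend was 1.99. Ratios used permutation tests (scipy 1.17.1). DESeq2 1.42.0 and limma 3.58.1 were alternatives. Set 4 took 4 unnumbered columns (C11, C12, V11, V12) whose group alone is known. These p-values treat libraries as independent. Sharing within sets would make them too small. Members and lists were chosen with earlier results of these data known. Other genes named are up to 3 per list and direction, past the threshold, with the largest change and a mean of at least 1 CPM, plus the 5 most like Camk4. A gene that this rule would name is not reported here.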

Additional observations from a re-analysis of the deposited data

Results flagged for a closer look

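The effect of verapamil on Ppp3ca differed between the 4 experiment sets (interaction of set and treatment, adjusted p = 0.0083 by edgeR over all genes). The log2 fold change was negative in every set, at -0.28, -1.51, -1.28 and -0.41 in sets 1 to 4. These estimates thus differed in size and not in sign. In set 4 the fall did not pass (adjusted p = 0.40 by edgeR). There V10 and V12 were at 115 and 107 CPM, inside the control range of 106 to 135 CPM. V11 was below it at 66.1 CPM, with a GC correlation of 0.361. The interaction no longer passed without set 1 (adjusted p = 0.094) or without set 2 (adjusted p = 0.078). The mean correlation of the verapamil-treated libraries with GC content moved with it, at 0.188, 0.542, 0.554 and 0.158, and its part in the difference was not tested.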

How the results depend on the processing

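Camk4 kept its direction and its call under all 22 alternatives, with log2 fold changes of 1.55 to 1.91. Over all genes 3836 rose and 3890 fell. The higher count was 2468 without the verapamil libraries of sets 2 and 3 (chosen after seeing the data) and 1871 with a block on replicate number together with the trend, and the lower count 2413 and 1109 under these, 2124 with summed counts and 1743 with the trend as covariates, and leaving out a set or its verapamil libraries gave 2518 to 4255. Members that rose numbered 4 with corrected counts and 1 to 2 with a set left out, the loss being Camk2d without set 1. Members that fell numbered 1 with summed counts, where Ppp3ca had an adjusted p of 0.058 by edgeR. They numbered 0 with the covariates or with the block and trend. Of all genes 17.3% fell with summed counts and 14.2% with the covariates. The trend turned 3 members: Camkk2 to 0.03 and Ppp3r1 to 0.12 (covariates), Ppp3cb to 0.42 and Ppp3r1 to 0.21 (corrected), and Ppp3cb to 0.07 and Ppp3r1 to 0.25 (block and trend). Ppp3r1 was at 0.04 without the verapamil libraries of sets 2 and 3, and passed as a fall under 8 alternatives, limma-voom (-0.28, adjusted p = 0.033) among them. Without the same libraries Ppp3ca (-0.31, adjusted p = 0.0072 by edgeR) and Ppp3cb (-0.15, adjusted p = 0.012) still passed as falls. Over set means none of the ratios passed after adjustment: -0.60 (Ppp3ca to Ppp3cb), 0.15 (Ppp3r1 to both), -0.39 (Camk2b to Camk2d and Camk2g to Camk2d) and 1.77 (Camk4 to Camkk2). For Ppp3ca to Ppp3cb and Camk4 to Camkk2 the exact permutation p before adjustment was 0.0286, the smallest that 4 against 4 can give. With a set left out, the Ppp3r1 ratio ran from 0.08 to 0.21, that of Camk2b to Camk2d from -0.51 to -0.25, that of Camk2g to Camk2d from -0.51 to -0.25, that of Camk2b to Camk2g from -0.02 to 0.03, and the log2 fold change of Camk2g from -0.06 to 0.002. The causes of these shifts were not tested.

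Replicate numbers did not pair the libraries: over 10 numbered pairs the deviations correlated at -0.0509 to 0.114, and 1 of 10 libraries correlated best with its own number. With a replicate block by number 3651 genes rose and 3917 fell, Ppp3r1 passed as a fall (-0.35, adjusted p = 0.023 by edgeR), and the Ppp3r1 ratio was 0.09, that of Camk2b to Camk2d -0.37 and that of Camk2g to Camk2d -0.37, none of which passed (exact permutation). The ratio of Camk4 to Camk1d was not run. Precision is limited for low genes, Camk4 in control cells resting on 61 to 206 reads per library.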
